A study of Mus musculus with 24 samples.

Results

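The marker genes of the necklace olfactory neurons, the small set of sensory neurons that signal through cyclic GMP, were followed in bulk RNA sequencing of mouse olfactory epithelium (OE). The members were picked out by gene symbol: Gucy2d, Cnga3, Pde2a and Car2. They were chosen with earlier results of these data known. Rows for 3 of these 4 symbols were found among the 45706 genes of the table. No row carried the symbol Pde2a, which was not analysed here. All 3 members found passed the filter on low counts and were among the 20763 genes tested. With the quasi-likelihood test of edgeR none of the 3 passed an adjusted p of 0.1 in the combined comparison of iRhom2-/- and WT mice or within any age group, while DESeq2 and the likelihood ratio test of edgeR called Gucy2d in the combined comparison. The Gucy2d level of every iRhom2-/- mouse was above that of every WT mouse at 8 weeks, as for 15.3% of all genes tested, and at 10 weeks, as for 6.55%, and 1.10% of genes were so at both ages.

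Whole OE was dissected from both nares of 12 WT mice and 12 iRhom2-/- mice, with 3 mice of each genotype at 5, 8, 10 and 30 weeks of age. The iRhom2-/- mice carry the Rhbdf2 tm1b(KOMP)Wtsi allele, in which a LacZ reporter is expressed from the promoter of Rhbdf2, the gene of iRhom2. The background of the strain is a mix of 129Sv and C57BL/6, and the loss of iRhom2 is not restricted to a cell type. The columns of the 8-week and 10-week mice could be matched to single mice. The columns of the other 12 mice showed the genotype only, so they were kept together as a stratum of 5 or 30 weeks with 6 libraries per genotype, and their replicate numbers only name the columns. The labels give each of the 3 strata a core reference number of its own, so age and whatever this number marks cannot be told apart. Of the 24 mice, 21 were labelled male and 3 female. At 10 weeks each genotype had 1 female, and at 8 weeks WT had 1 and iRhom2-/- 0. With sex as a further term the 8-week log2 fold changes were 0.94 for Gucy2d, 0.52 for Cnga3 and 0.40 for Car2.

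Most olfactory sensory neurons (OSNs) detect odours with odorant receptors and raise cyclic AMP through the G protein subunit Gnal, the adenylyl cyclase Adcy3 and the channel subunit Cnga2. Necklace neurons lack this cascade. Gucy2d encodes GC-D, a guanylyl cyclase of the plasma membrane that serves as receptor for the peptides guanylin and uroguanylin and makes cyclic GMP. Cnga3 encodes the channel subunit, also used in cone photoreceptors, that cyclic GMP opens. Pde2a encodes a phosphodiesterase that is stimulated by cyclic GMP. Car2, carbonic anhydrase 2, forms the bicarbonate through which these neurons detect carbon dioxide. Members of the Ms4a family are their other receptors. Their axons end in a chain of glomeruli around the caudal olfactory bulb, which gave them their name. Of the 3 genes measured, Car2 is also made by many other cells, red blood cells among them.

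The positions of the members were taken from the GENCODE vM21 annotation of GRCm38, the build of the authors' alignment. Gucy2d lies on the plus strand at chr7:98440416-98477479, with 4102 bases of exon. Cnga3 lies on the plus strand at chr1:37214434-37263384, with 3957 bases of exon. Car2 lies on the plus strand at chr3:14886273-14900770, with 2422 bases of exon. No annotated gene shared exon bases with Gucy2d, Cnga3 or Car2. The Pde2a gene spans chr7:101421691-101512827 on the plus strand, and a row named Gm45837, which spans chr7:101410886-101512819 on the same strand, has 95.6% of its 4139 exon bases within Pde2a exons. Reads of Pde2a could have been assigned to Gm45837, and its values are given apart and are not called Pde2a.

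The 250 bases before the annotated transcription starts of Gucy2d and Cnga3 are shown. They were taken from the RefSeq promoter table of GRCm38.p6. That table held 1 start for Gucy2d and 2 for Cnga3. Car2 had no entry. Whether these bases have a part in how the members varied together over the libraries was not tested.
Gucy2d, plus strand, chr7:98440166-98440415: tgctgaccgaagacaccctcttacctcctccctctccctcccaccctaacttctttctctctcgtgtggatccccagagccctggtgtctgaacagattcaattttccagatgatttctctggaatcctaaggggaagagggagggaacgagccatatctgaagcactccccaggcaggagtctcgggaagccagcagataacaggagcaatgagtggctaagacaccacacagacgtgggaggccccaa
Cnga3, first start, plus strand, chr1:37218028-37218277: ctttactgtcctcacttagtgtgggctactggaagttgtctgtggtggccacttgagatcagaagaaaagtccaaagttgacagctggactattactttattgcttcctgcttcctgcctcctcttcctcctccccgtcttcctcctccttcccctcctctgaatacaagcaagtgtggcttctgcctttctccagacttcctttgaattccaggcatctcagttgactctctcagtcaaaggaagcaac
Cnga3, second start, plus strand, chr1:37218955-37219204: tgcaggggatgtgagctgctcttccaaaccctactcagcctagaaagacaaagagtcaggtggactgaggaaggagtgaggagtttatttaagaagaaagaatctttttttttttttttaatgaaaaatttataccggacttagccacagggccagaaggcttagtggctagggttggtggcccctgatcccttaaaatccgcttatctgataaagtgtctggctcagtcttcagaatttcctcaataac
These windows were searched on both strands for CCCNNGGG, which resembles the core of the site of the olfactory Ebf factors, and for TAATTA, a homeodomain site. None of the 3 windows held any of these letters, so none of their bases is in capitals. Over all 32851 promoter windows of the same length, 11.8% held CCCNNGGG and 4.84% held TAATTA.

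The targeted gene was measured first as a check of the labels. Rhbdf2 was between 19.3 and 24.9 CPM (counts per 1000000 counts of the library, scaled by TMM) in the 12 WT libraries and between 7.19 and 13.4 in the 12 iRhom2-/- libraries, without overlap. Its combined log2 fold change, iRhom2-/- over WT with stratum as a term, was -1.08 ± 0.087 (SE, n = 12 per genotype, edgeR quasi-likelihood test, adjusted p = 9.8e-08). The libraries held between 25333822 and 48660394 counts. In iRhom2-/- replicate 2 of 10 weeks a single gene, Bpifb9b, took 13.6% of all counts.

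Levels of the members were compared per kilobase (kb) of exon, since CPM grows with the length of a gene. Car2 had by far the highest level, with a mean of 37.2 ± 6.58 CPM per kb in WT (SD, n = 12) and 39.0 ± 7.20 in iRhom2-/- (SD, n = 12). Gucy2d followed with 0.439 ± 0.125 CPM per kb in WT and 0.680 ± 0.237 in iRhom2-/- (SD, n = 12 each). Cnga3 was lowest, with 0.0988 ± 0.0416 CPM per kb in WT and 0.115 ± 0.0891 in iRhom2-/- (SD, n = 12 each). This order held in all 24 libraries. Car2 was between 42.1 and 130.8 times the level of Gucy2d per kb, with a median of 71.7. Gucy2d was between 2.65 and 17.4 times the level of Cnga3 per kb, with a median of 5.35. By this measure 93.6% of the genes tested lay below Car2, 24.2% below Gucy2d and 5.82% below Cnga3.

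The counterparts of the members in canonical OSNs were far more abundant. Adcy3 was a median of 344.5 times the level of Gucy2d per kb, with a range of 193.2 to 802.0 over the 24 libraries. Cnga2 exceeded Cnga3 per kb by at least 1005 times in every library, with a median of 2450. Omp, olfactory marker protein of mature OSNs, was a median of 71.0 times the level of Car2 per kb. These ratios compare RNA of the whole tissue, where the number of cells of a type and the RNA of each cell cannot be told apart.

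**Figure D1:**
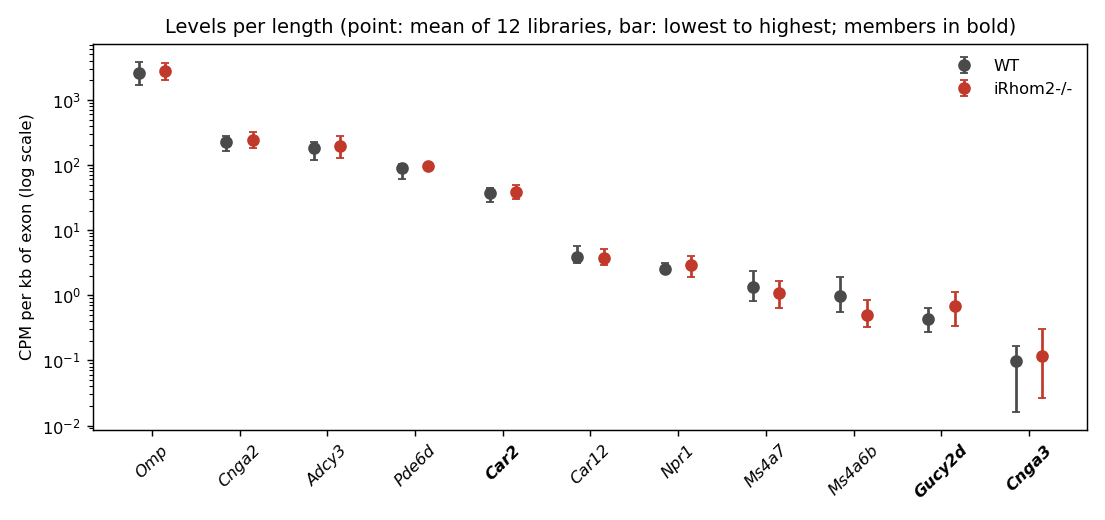
Level per length, as CPM per kb of exon on a log axis, of the 3 members (bold) and of canonical OSN, pathway and Ms4a genes. Points are means of 12 libraries per genotype and bars run from the lowest to the highest library. Gucy2d and Cnga3 sit at the low end, and Car2 lies above both and below Omp, Cnga2 and Adcy3.

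Gucy2d, the receptor cyclase, was counted between 33 and 178 times per library. At 8 weeks it stood at 1.72, 1.32 and 1.49 CPM in the 3 WT mice and at 3.05, 1.75 and 4.05 CPM in the 3 iRhom2-/- mice. At 10 weeks it stood at 2.15, 1.14 and 1.82 CPM in WT and at 4.61, 2.89 and 2.97 CPM in iRhom2-/-. The genotypes did not overlap at either age, although the lowest iRhom2-/- mouse of 8 weeks lay close to the highest WT mouse. In the stratum of 5 or 30 weeks the 6 WT libraries ran from 1.12 through a median of 2.02 to 2.64 CPM, and the 6 iRhom2-/- libraries from 1.38 through a median of 2.30 to 3.56 CPM. There the genotypes overlapped, and 2 of the 6 iRhom2-/- libraries lay above every WT library. Over all strata 10 of 12 iRhom2-/- libraries were above the WT mean of their stratum.

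The log2 fold change of Gucy2d was 0.96 ± 0.37 (SE, n = 3 per genotype, edgeR, adjusted p = 0.218) at 8 weeks and 1.03 ± 0.37 (SE, n = 3 per genotype, edgeR, adjusted p = 0.457) at 10 weeks. In the stratum of 5 or 30 weeks it was 0.24 ± 0.26 (SE, n = 6 per genotype, edgeR, adjusted p = 0.732), and ran from 0.092 without iRhom2-/- replicate 3 to 0.37 without iRhom2-/- replicate 5 of that stratum. Combined over strata it was 0.62 ± 0.19 (SE, n = 12 per genotype), a fold of 1.54, with an unadjusted p of 0.00386 and an adjusted p of 0.140 (edgeR quasi-likelihood test). The interval of 2 standard errors ran from 0.23 to 1.01. The difference of the genotype effect between strata did not pass the test (edgeR with 2 degrees of freedom, adjusted p = 0.511). Across all genes tested, 1.97% were called in the combined comparison, and 12.4% had an unadjusted p under 0.05. The stratum values of Gucy2d stand beside 1.95% of genes called at 8 weeks, 0.188% at 10 weeks and 0.843% at 5 or 30 weeks.

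The choice of test decided whether Gucy2d passed the threshold in the combined comparison. With DESeq2, which called 3.97% of all genes, the log2 fold change was 0.63 and the adjusted p was 0.0519. With the likelihood ratio test of edgeR, which called 2.60% of all genes, the adjusted p was 0.0954. Without iRhom2-/- replicate 5 of 5 or 30 weeks, the lowest iRhom2-/- library, the adjusted p was 0.0805 (edgeR quasi-likelihood test), with 1.76% of genes called. An exact permutation of genotype within strata gave a difference of 0.58 in log2 CPM and a two-sided p of 0.00793 without adjustment. Within 8 or 10 weeks the exact permutation test gave p = 0.10, the smallest that 3 against 3 allows. Groups that did not overlap were common at these ages: of all genes tested, 15.3% were higher in every iRhom2-/- mouse at 8 weeks, 6.55% at 10 weeks and 1.10% at both. At 5 or 30 weeks 0.925% of genes were higher in every iRhom2-/- library, and Gucy2d was not among them.

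Mature OSN markers also differed in their estimates by age. At 8 weeks all 10 markers of the list had a higher estimate in iRhom2-/- mice (median log2 fold change 0.53, against 0.014 over all genes tested), with summed levels of 14560 to 18420 CPM against 9773 to 12170 in WT. At 10 weeks 9 of the 10 had a lower estimate (median -0.19), with summed levels of 12690 to 16250 CPM against 14550 to 17930. Measured against the mean log2 CPM of these 10 markers, the Gucy2d difference was 0.35 at 8 weeks (exact permutation p = 0.40), 1.19 at 10 weeks (exact permutation p = 0.10) and 0.16 at 5 or 30 weeks (exact permutation p = 0.403). The 8-week difference of Gucy2d was smaller relative to mature OSN markers, and the 10-week difference was as large. Combined over strata it was 0.47 (exact permutation within strata, p = 0.0154, unadjusted), and this measure was chosen after seeing the data.

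**Figure D2:**
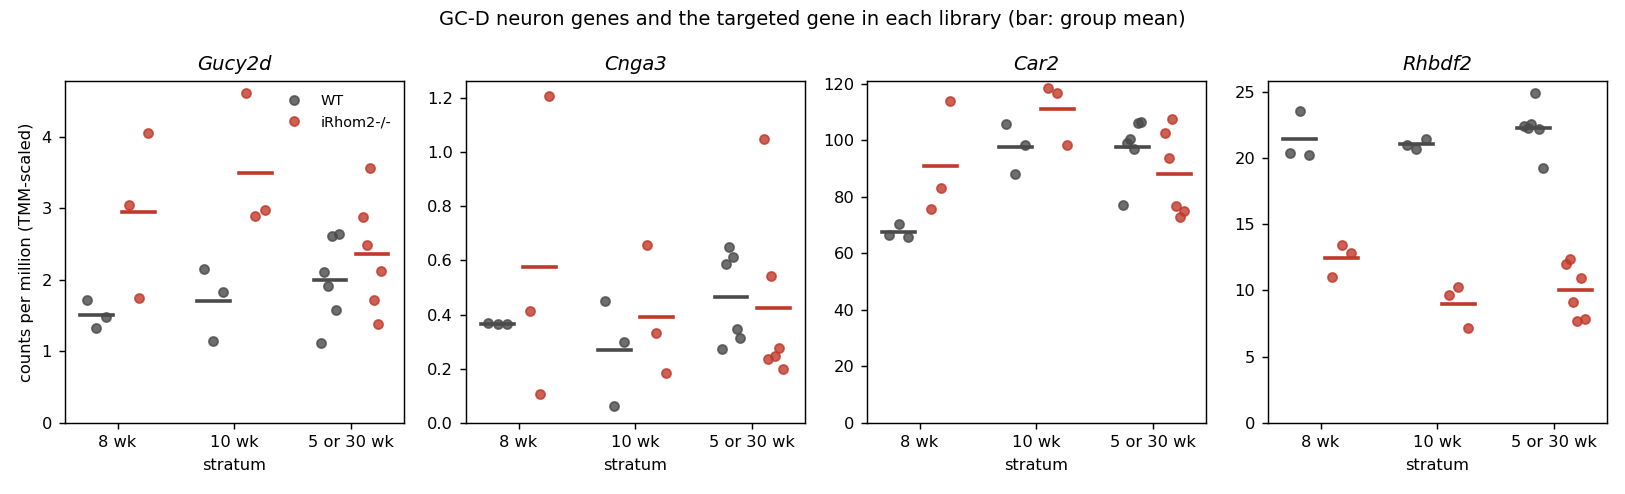
CPM of Gucy2d, Cnga3, Car2 and the targeted gene Rhbdf2 in each of the 24 libraries, by stratum, with WT in grey, iRhom2-/- in red and the group mean as a bar. Gucy2d and Car2 lie higher in every iRhom2-/- mouse at 8 weeks, Gucy2d also at 10 weeks, and Rhbdf2 is lower in every iRhom2-/- library.

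Cnga3, the channel subunit, was counted between 2 and 53 times per library, which limits the precision of every comparison of it. At 8 weeks it stood at 0.370, 0.365 and 0.365 CPM in WT and at 0.415, 0.105 and 1.21 CPM in iRhom2-/-. The 3 WT mice were almost the same, while the iRhom2-/- mice lay on both sides of them. At 10 weeks it stood at 0.449, 0.0634 and 0.299 CPM in WT and at 0.658, 0.334 and 0.186 CPM in iRhom2-/-. At 5 or 30 weeks WT ran from 0.271 through a median of 0.468 to 0.648 CPM, and iRhom2-/- from 0.197 through a median of 0.261 to 1.05 CPM. The genotypes overlapped in each stratum.

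The combined log2 fold change of Cnga3 was 0.23 ± 0.37 (SE, n = 12 per genotype, edgeR, adjusted p = 0.875). Its interval of 2 standard errors ran from -0.51 to 0.96, a range that includes the combined estimate of Gucy2d. Without iRhom2-/- replicate 3 of 8 weeks, which held 53 of its counts, the combined estimate was -0.04 and the 8-week estimate went from 0.64 to -0.50. The 10-week and the 5 or 30 week estimates, 0.54 and -0.14, also changed sign when a single library was left out, to -0.07 without iRhom2-/- replicate 1 of 10 weeks and to 0.01 without iRhom2-/- replicate 6 of 5 or 30 weeks.

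Car2, carbonic anhydrase 2, was counted between 2106 and 4999 times per library. At 8 weeks it stood at 66.5, 70.2 and 65.7 CPM in WT and at 75.7, 83.0 and 114 CPM in iRhom2-/-, without overlap, as did 15.3% of all genes in this direction. At 10 weeks it stood at 106, 88.2 and 98.4 CPM in WT and at 118, 117 and 98.1 CPM in iRhom2-/-, with overlap. At 5 or 30 weeks WT ran from 77.2 through a median of 99.7 to 106.5 CPM, and iRhom2-/- from 72.7 through a median of 85.2 to 107.5 CPM. In that stratum 3 of the 6 iRhom2-/- libraries lay below every WT library and 1 above.

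The log2 fold change of Car2 was 0.43 ± 0.16 (SE, n = 3 per genotype, edgeR, adjusted p = 0.195) at 8 weeks, 0.19 ± 0.16 (SE, n = 3 per genotype, edgeR, adjusted p = 0.850) at 10 weeks and -0.15 ± 0.11 (SE, n = 6 per genotype, edgeR, adjusted p = 0.583) at 5 or 30 weeks. The combined value was 0.08 ± 0.091 (SE, n = 12 per genotype, edgeR, adjusted p = 0.806), with an interval of 2 standard errors from -0.10 to 0.26. The test of a difference between strata had an unadjusted p of 0.0173 and an adjusted p of 0.306 (edgeR with 2 degrees of freedom), where 0.0482% of all genes passed. Without iRhom2-/- replicate 3 of 8 weeks the 8-week estimate was 0.22. Relative to the mature OSN markers, the Car2 difference was -0.11 at 8 weeks (exact permutation p = 0.50), 0.35 at 10 weeks (exact permutation p = 0.10) and -0.22 at 5 or 30 weeks (exact permutation p = 0.0303, unadjusted).

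Counting the members by call, 0 of 3 passed an adjusted p of 0.1 in the combined comparison with the edgeR quasi-likelihood test or limma-trend, and 1 of 3, Gucy2d, passed with DESeq2 and with the likelihood ratio test. At an adjusted p of 0.05 the count was 0 of 3 (edgeR quasi-likelihood test) both combined, where 1.13% of all genes passed, and at 8 weeks, where 0.506% passed. At an unadjusted p under 0.05 (edgeR quasi-likelihood test) the count was 1 of 3 combined (Gucy2d), 2 of 3 at 8 weeks (Gucy2d and Car2), 1 of 3 at 10 weeks (Gucy2d) and 0 of 3 at 5 or 30 weeks. Over all genes tested, that mark was reached by 12.4% combined, 14.5% at 8 weeks, 7.71% at 10 weeks and 13.1% at 5 or 30 weeks.

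**Figure D3:**
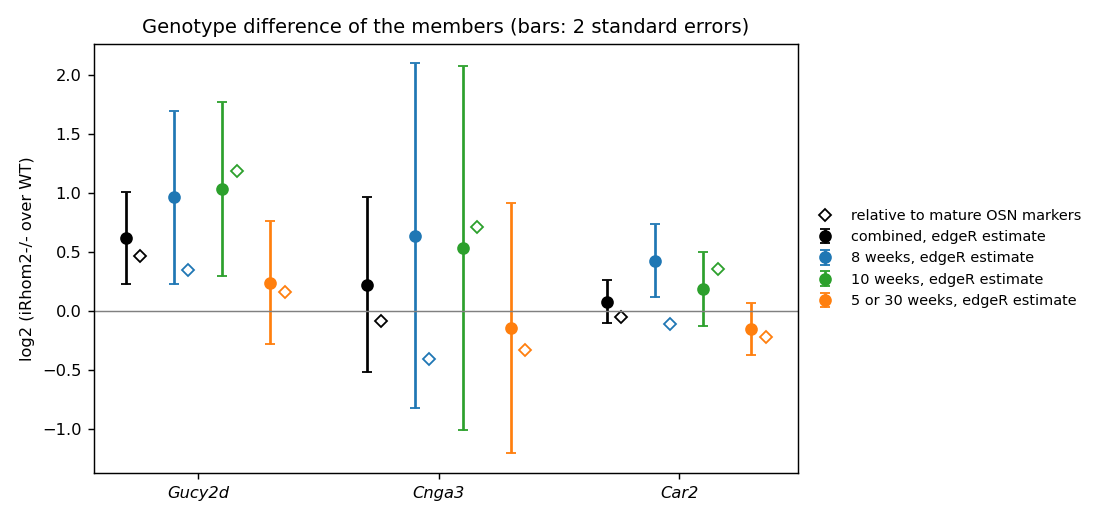
Log2 ratio of iRhom2-/- over WT for each member, combined and by stratum, with bars of 2 standard errors from the edgeR fit. Open diamonds give the difference of mean log2 CPM relative to the 10 mature OSN markers, which is not an edgeR estimate. For Gucy2d the edgeR points are at 0.96 (8 weeks) and 1.03 (10 weeks), and the diamonds at 0.35 and 1.19. In log2 CPM without the markers, its differences were 0.87 and 1.02. The bars of Cnga3 span 0 in every comparison.

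Gm45837, the row that overlaps the Pde2a locus, had no such pattern. It lay between 15.4 and 26.8 CPM over the 24 libraries, and its combined log2 fold change was -0.07 ± 0.076 (SE, n = 12 per genotype, edgeR, adjusted p = 0.808). The stratum values were -0.09 at 8 weeks, 0.12 at 10 weeks and -0.15 at 5 or 30 weeks.

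The members varied together from library to library. After removing the mean of each stratum from log2 CPM, Gucy2d and Car2 had a Pearson r of 0.72 (permutation within strata, p = 0.00018, adjusted over 3 pairs 0.00054) and a Spearman rho of 0.67 (p = 0.00055, adjusted 0.0016, permutation) over 24 libraries. Gucy2d and Cnga3 had an r of 0.63 (permutation p = 0.0023, adjusted 0.0026) and a rho of 0.55 (permutation p = 0.0079, adjusted 0.0079). Cnga3 and Car2 had an r of 0.63 (permutation p = 0.0026, adjusted 0.0026) and a rho of 0.60 (permutation p = 0.0035, adjusted 0.0052). Without the 2 libraries farthest from the median of the first gene, r was 0.62 for Gucy2d and Car2, 0.46 for Gucy2d and Cnga3, and 0.43 for Cnga3 and Car2. The last 2 of these relations rest in part on those libraries, among which iRhom2-/- replicate 3 of 8 weeks stood highest for each member after centring.

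Within each stratum the 3 correlations were positive. For Gucy2d and Car2, r was 0.80 at 8 weeks and 0.85 at 10 weeks (n = 6 libraries each) and 0.65 at 5 or 30 weeks (n = 12 libraries). For Gucy2d and Cnga3, r was 0.66, 0.78 and 0.48 in the same order. With genotype means removed as well, r over 24 libraries was 0.74 for Gucy2d and Cnga3, 0.74 for Gucy2d and Car2 and 0.68 for Cnga3 and Car2, so the relation was also present among mice of the same genotype and stratum. Gm45837 was less like the members, with r between 0.12 and 0.29. Mature OSN markers, as their mean, had an r of 0.52 with Gucy2d, 0.24 with Cnga3 and 0.66 with Car2. In the same order, markers of tuft-like microvillar cells and ionocytes had 0.47, 0.12 and 0.35. Sustentacular markers had 0.15, 0.10 and 0.45. Immature OSN markers had -0.21, -0.13 and -0.39, and red blood cell markers had -0.16, -0.042 and 0.10. Libraries share depth and tissue composition, and the stratum of 5 or 30 weeks holds mice of both ages, whose means were not removed apart. The part of these in the relations was not tested.

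The spread between mice was wider than counting alone gives for Car2 in each group, and for Gucy2d in each group except WT mice of 8 weeks, where the coefficient of variation was 13.2% against 12.4% from counting. In WT mice of 5 or 30 weeks the coefficient of variation of Gucy2d was 29.7%, against 13.3% from counting alone. In iRhom2-/- mice of 8 weeks it was 39.1% against 9.03%. For Car2 the same groups gave 11.0% against 1.84% and 22.3% against 1.56%. For Cnga3 in WT mice of 5 or 30 weeks it was 36.7% against 28.4%. In WT mice of 8 weeks it was 0.804% against 25%, below the spread from counting. Groups of 5 or 30 weeks hold mice of both ages, so their spread includes any difference by age.

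**Figure D4:**
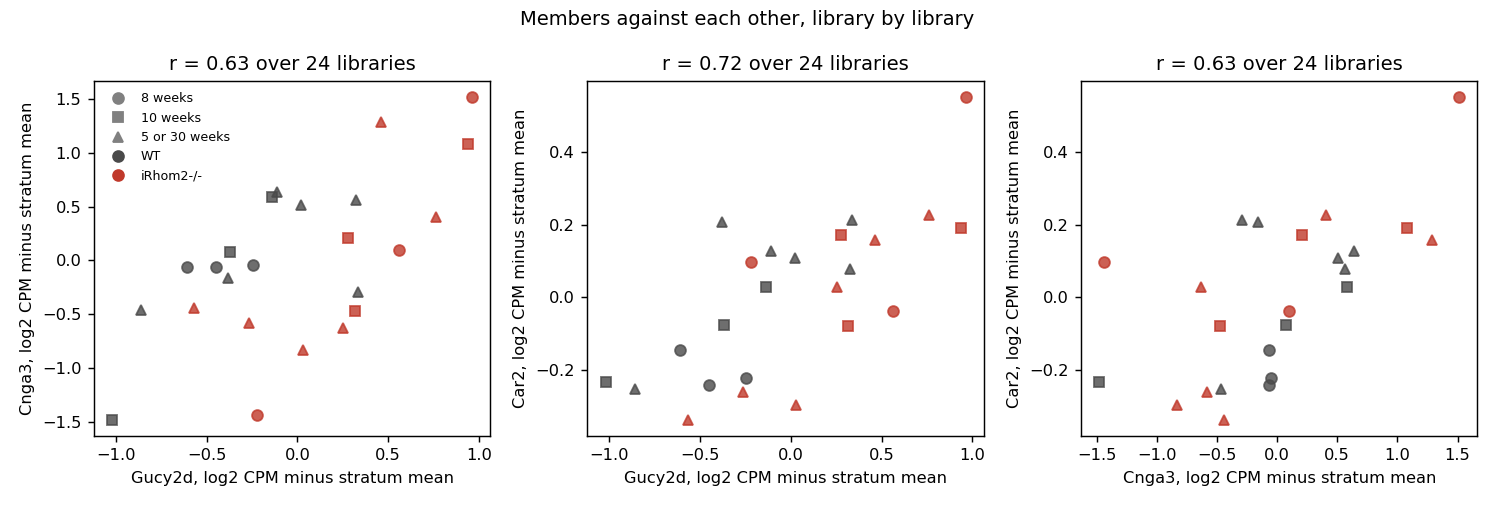
Each member against each other member in the 24 libraries, as log2 CPM minus the stratum mean, with the stratum as the symbol and the genotype as the colour. Libraries high in 1 member tend to be high in the others, with r = 0.63, 0.72 and 0.63, and iRhom2-/- replicate 3 of 8 weeks is at or near the upper right corner of each panel.

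The genes most like each member over the 24 libraries were drawn from 16320 genes with a mean of at least 1 CPM, and their r is a description. For Gucy2d they were Caly (r = 0.82), Sphkap (0.78), the odorant receptor gene Olfr1260 (0.78), Exoc1 (0.77) and the odorant receptor gene Olfr536 (0.76). Olfr536 was called in the combined comparison (log2 fold change 0.57, edgeR, adjusted p = 0.0407), and the other 4 were not. For Cnga3 they were the odorant receptor gene Olfr723 (r = 0.77), Slc35f6 (0.67), 2 rows with an identifier only (0.65 each) and Sphkap (0.64). Sphkap, an anchoring protein of protein kinase A, thus appeared for both. For Car2 they were Dym (0.85), Rab3a (0.84), Nfe2l2 (0.81), Pgam1 (0.80) and Mthfd1 (0.80). These lists depended on the measure. With genotype means removed as well, 1 of the 5 genes remained for Gucy2d, 3 for Cnga3 and 2 for Car2, and with Spearman's rho 2, 3 and 2 remained. Among the genes ranked for Cnga3, Gucy2d had place 6 and Car2 place 7. Among those ranked for Gucy2d, Car2 had place 14 and Cnga3 place 96. For Car2, Gucy2d had place 54 and Cnga3 place 230.

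Of the ligands that act on membrane guanylyl cyclases, guanylin (Guca2a) and uroguanylin (Guca2b), the peptides that GC-D binds, were at 0 counts in 23 and 21 of the 24 libraries. Nppc, C-type natriuretic peptide, was lower in iRhom2-/- mice, with 2.72 ± 1.53 CPM in WT and 1.83 ± 1.504 in iRhom2-/- (SD, n = 12 each) and a combined log2 fold change of -0.75 ± 0.21 (SE, edgeR, adjusted p = 0.0885). Over all libraries the genotypes overlapped. Nppc was between 3.41 and 5.83 CPM over all mice of 10 weeks and reached 3.47 elsewhere. Its log2 fold change was -0.82 at 8 weeks, -0.17 at 10 weeks and -1.03 at 5 or 30 weeks. It was called in none of these strata (edgeR quasi-likelihood test). With limma-trend its combined adjusted p was 0.102. Nppa, atrial natriuretic peptide, had a combined log2 fold change of -0.48 ± 0.63 (SE, edgeR, adjusted p = 0.834). Of 5 ligand genes 2 passed the filter, and 1 of these was called lower, against 0.852% of all genes called lower in the combined comparison.

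The Ms4a family, which supplies other receptors of GC-D neurons and is also expressed by leukocytes, had mostly lower estimates in iRhom2-/- mice. Of 13 genes listed 9 passed the filter, and 2 of the 9 were called lower in the combined comparison, against 0.852% of all genes. The median log2 fold change of the 9 was -0.62, against -0.0011 over all genes tested, and 8 of the 9 estimates were negative. At 10 weeks the median was 0.15, with 5 of the 9 positive. Ms4a6b fell to 2.24 ± 0.678 CPM in iRhom2-/- mice from 4.36 ± 2.07 in WT (SD, n = 12 each), with a log2 fold change of -0.93 ± 0.22 (SE, edgeR, adjusted p = 0.0310). At 8 weeks Ms4a6b stood at 7.71, 3.81 and 3.56 CPM in WT and at 3.26, 1.45 and 1.502 CPM in iRhom2-/-. At 10 weeks it stood at 2.44, 3.39 and 2.45 CPM in WT and at 2.03, 3.78 and 1.83 CPM in iRhom2-/-. The genotypes were apart at 8 weeks, where 10.4% of all genes were lower in every iRhom2-/- mouse, and mixed at 10 weeks. In the stratum of 5 or 30 weeks they were apart again, with 3.13 to 8.64 CPM in WT and 1.87 to 2.48 CPM in iRhom2-/- (log2 fold change -1.15, edgeR, adjusted p = 0.0834). In that stratum 0.602% of all genes were lower in every iRhom2-/- library, and 0.409% were called lower.

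Ms4a4b, which T cells also express, fell to 0.607 ± 0.420 CPM from 2.09 ± 1.79 in WT (SD, n = 12 each), with a combined log2 fold change of -1.67 ± 0.44 (SE, edgeR, adjusted p = 0.0649). At 8 weeks it stood at 6.84, 2.42 and 1.83 CPM in WT and at 0.601, 0.358 and 0.364 CPM in iRhom2-/- (log2 fold change -3.05, edgeR, adjusted p = 0.0793). Without WT replicate 1 of 8 weeks, the highest library, the 8-week log2 fold change of Ms4a4b was -2.255 (edgeR, adjusted p = 0.406). In that fit 24 of all genes were called at 8 weeks. The combined values without that library were -0.82 for Ms4a6b (edgeR, adjusted p = 0.0609) and -1.44 for Ms4a4b (edgeR, adjusted p = 0.0959). The family members with the highest CPM did not pass the test, with combined log2 fold changes of -0.37 for Ms4a7 (edgeR, adjusted p = 0.383) and -0.62 for Ms4a6c (edgeR, adjusted p = 0.201).

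Leukocyte markers had lower estimates in the same strata as the Ms4a genes. All 10 macrophage markers had a lower combined estimate (median -0.28), and 1 was called lower, against 0.852% of all genes. Their summed level was 312.9 to 653.4 CPM in WT and 183.5 to 314.6 CPM in iRhom2-/- mice at 8 weeks, and 310.9 to 368.2 against 315.2 to 741.8 CPM at 10 weeks. All 10 lymphocyte markers also had a lower combined estimate (median -0.84). Their median was -1.67 at 8 weeks, 0.05 at 10 weeks and -1.10 at 5 or 30 weeks. At 8 weeks 4 of the 10 were called lower, against 0.766% of all genes. The part of these cells in the values of the Ms4a genes was not tested.

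The other makers of cyclic GMP did not pass the test, and DESeq2, limma-trend and the likelihood ratio test of edgeR also called 0 of the cyclases, calcium sensors, soluble cyclase genes, kinases and carbonic anhydrases in any comparison. Of the 7 other membrane guanylyl cyclases and natriuretic peptide receptors 0 were called in any comparison (edgeR). An unadjusted p under 0.05 (edgeR) was reached by 1 combined, 2 at 8 weeks and 2 at 10 weeks. Over all genes, 12.4%, 14.5% and 7.71% reached it in the same order. The combined median log2 fold change of the 7 was 0.11. The highest of them in CPM were the natriuretic peptide receptors Npr2, with a combined log2 fold change of 0.11 ± 0.068 (SE, edgeR, adjusted p = 0.557), and Npr1, with 0.19 ± 0.095 (SE, edgeR, adjusted p = 0.441). Of the 6 calcium sensors that regulate guanylyl cyclases 0 were called and 0 had an unadjusted p under 0.05 in any comparison (edgeR). Hpcal1 and Ncald, the highest in CPM, had log2 fold changes of -0.09 and -0.01. Of the 5 genes of soluble guanylyl cyclase and Trpc2, the channel of vomeronasal neurons and of a small set of OE neurons, 0 were called (edgeR). An unadjusted p under 0.05 was reached by 1 of the 5 combined (edgeR), against 12.4% of all genes. The subunits Gucy1a1 and Gucy1b1 had combined log2 fold changes of -0.24 and -0.28.

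Among the effectors, 0 of 4 other cyclic nucleotide-gated channel subunits tested (of 5 listed) were called in any comparison (edgeR). At 8 weeks 2 had an unadjusted p under 0.05 (edgeR), against 14.5% of all genes. Cnga2, the canonical channel subunit, stood at 534.8, 684.6 and 661.2 CPM in WT and at 810.3, 935.1 and 1006 CPM in iRhom2-/- mice of 8 weeks. At 10 weeks it stood at 841.7, 718.2 and 840.8 CPM in WT and at 715.2, 673.7 and 707.7 CPM in iRhom2-/-. It was thus above every WT mouse at 8 weeks, as 15.3% of all genes were, and below every WT mouse at 10 weeks, as 6.41% were, and the difference between strata had an adjusted p of 0.312 (edgeR). DESeq2, which called more of all genes at 8 weeks than the quasi-likelihood test, called Cnga2 there. The 2 cGMP-dependent kinases did not pass the test at an adjusted p of 0.1 or an unadjusted p of 0.05, with combined log2 fold changes of 0.02 for Prkg1 and -0.10 for Prkg2.

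Of 15 genes of other phosphodiesterases that act on cyclic GMP, subunits without that activity included, 13 were tested, and 0 were called in the combined comparison (edgeR). Pde6d, a subunit that carries prenylated proteins to the cilium, was higher at 8 weeks, against 1.18% of all genes called higher there. It stood at 134.6, 161.3 and 182.2 CPM in WT and at 205.8, 235.2 and 233.1 CPM in iRhom2-/-, with a log2 fold change of 0.50 ± 0.12 (SE, n = 3 per genotype, edgeR, adjusted p = 0.0591). Without WT replicate 1 of 8 weeks its log2 fold change was 0.39 and its adjusted p was 0.346 (edgeR), with 24 of all genes called at 8 weeks. Pde1c, the phosphodiesterase of OSN cilia, had a combined log2 fold change of 0.10 ± 0.11 (SE, edgeR, adjusted p = 0.777).

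Of 15 other carbonic anhydrases 14 were tested and 0 were called (edgeR). At an unadjusted p under 0.05 (edgeR) there was 1 combined, against 12.4% of all genes. Of the 14 estimates 10 were negative (median -0.07). Car12, the highest in CPM without regard to length, had a combined log2 fold change of -0.06 ± 0.087 (SE, edgeR, adjusted p = 0.870). Car6, a secreted form, had -0.68 ± 0.96 (SE, edgeR, adjusted p = 0.852), and its counts ran from 2 to 6504 over the 24 libraries.

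The cyclic AMP cascade of canonical OSNs was set beside the members. Its genes Omp, Stoml3, Rtp1, Cnga2, Ano2, Adcy3, Gnal and Cnga4 are also on the list of mature OSN markers used above. The lists thus share values. Of 14 genes 0 were called combined (edgeR), with 3 at an unadjusted p under 0.05, against 12.4% of all genes. At 8 weeks 1 was called higher, against 1.18% of all genes. An unadjusted p under 0.05 was reached there by 10 of 14 (edgeR), against 14.5% of all genes. DESeq2 called 4 there and the likelihood ratio test 3. Over all genes both also called more at 8 weeks than the quasi-likelihood test, with counts given in the last section. Rtp1, which carries odorant receptors to the surface, stood at 414.4, 480.8 and 467.5 CPM in WT and at 535.8, 616.2 and 624.2 CPM in iRhom2-/- mice of 8 weeks (log2 fold change 0.38 ± 0.099, SE, edgeR, adjusted p = 0.0729). Without WT replicate 1 of 8 weeks its log2 fold change was 0.32 and its adjusted p was 0.378 (edgeR), with 24 of all genes called at 8 weeks. The median log2 fold change of the 14 genes was 0.48 at 8 weeks, with 12 positive, and -0.12 at 10 weeks, with 11 negative. Omp and Stoml3, the highest of the list in CPM, had combined log2 fold changes of 0.12 and 0.09.

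**Figure D5:**
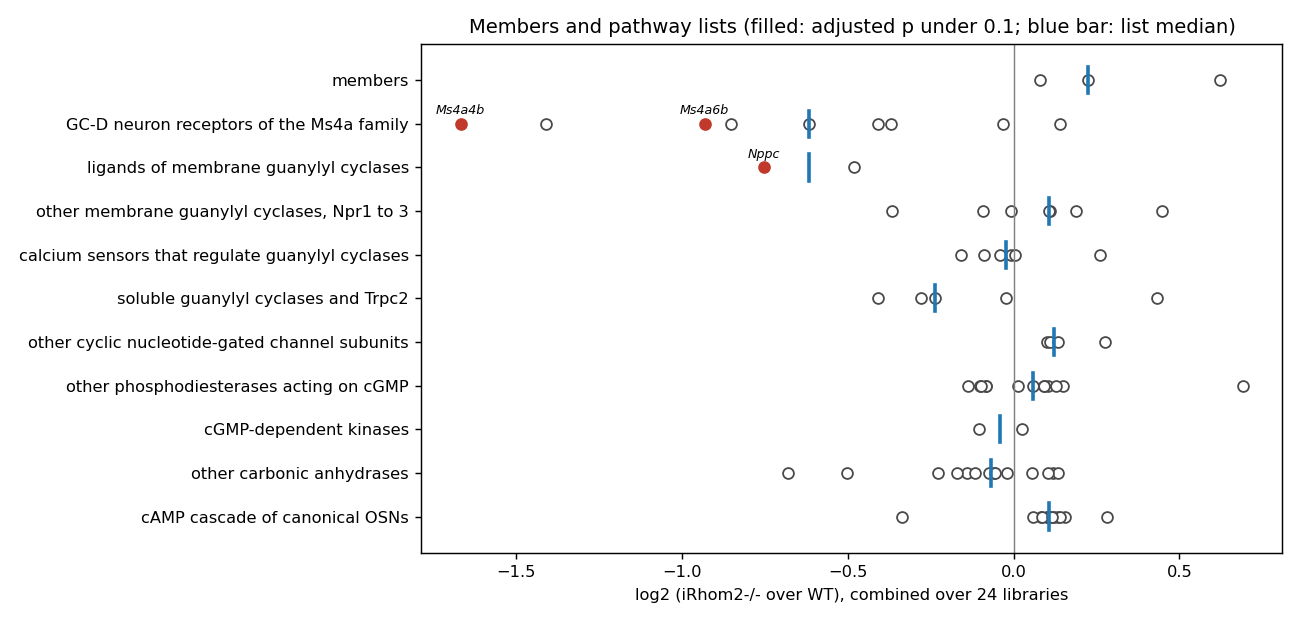
Log2 ratio of iRhom2-/- over WT for every gene tested of each pathway list, combined over strata, with filled points for genes called at an adjusted p under 0.1 (edgeR) and a bar for the median of the list. The called points are Ms4a6b, Ms4a4b and Nppc, all below 0, and Gucy2d lies at 0.62 without being called.

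The genes next to the members on the chromosome were also compared. The 12 tested genes within 500 kb of Gucy2d had a median combined log2 fold change of 0.07. The 11 near Cnga3 and the 10 near Car2 had medians of -0.04 and -0.07. Rhbdf2, the targeted gene, lies on chromosome 11, apart from the members.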

How the data were processed

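Whole OE of 24 mice was measured by poly-A RNA sequencing. The authors aligned paired reads to GRCm38 with STAR and estimated gene counts with RSEM through the nf-core pipeline. The deposited table holds these expected counts as whole numbers, not normalised. Columns with the fold change, mean level, likelihood ratio, p-value and FDR of the authors' own comparison were not used. Of the 24 count columns 12 were matched to single mice and 12 showed the genotype only. By elimination these are the mice of 5 or 30 weeks, so age is not known per column.

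The counts, already whole, were filtered with filterByExpr and scaled by TMM in edgeR 4.0.16 (R 4.3.3). The quasi-likelihood test was fitted over all 24 libraries with stratum and genotype for the combined comparison. Values at 8 weeks, 10 weeks and 5 or 30 weeks, and their difference, came from contrasts of a fit of the 6 group means, which share 1 estimate of the spread. P-values were adjusted over all genes tested by Benjamini-Hochberg. A gene was called at an adjusted p under 0.1. Values are CPM, and log2 CPM uses a prior count of 2. Intervals are 2 standard errors. P-values reflect the spread between these mice. No pair of the 42 within-group pairs agreed within counting noise. The quasi-likelihood test was checked on simulated counts with known changes. These were drawn from the spread that edgeR fitted to these data, so libraries that depart from that spread were not covered. Alternatives were DESeq2 1.42.0, limma-trend 3.58.1, the likelihood ratio test, other filters and scalings, a sex term, males alone, a replicate block, permutation, and leaving out each library.

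The members and pathway lists were chosen with earlier results of these data known. Named genes were the members, Rhbdf2, the genes of each list called in any comparison (at most 4) and the 2 with the highest CPM, and the 5 genes most like each member. Adcy3 was added as the counterpart of Gucy2d, and Bpifb9b for its share of counts, after values were seen.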

Additional observations from a re-analysis of the deposited data

Results flagged for a closer look

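Within the groups of 6 libraries of 5 or 30 weeks, 84 groups over 42 genes were searched for a library far from the others, and 5 were found. Chance alone marks about 1 in 20 groups. Car2 was lowest in WT replicate 1 of 5 or 30 weeks, at 77.2 CPM, where the next library was at 97.0. Rab3a, a gene most like Car2, was lowest in the same library, at 93.4 CPM, with the next at 112. Ms4a7 was lowest in iRhom2-/- replicate 1, at 2.88 CPM, with the next at 4.41. Nppc was highest in iRhom2-/- replicate 3, at 2.00 CPM, with the next at 1.21. Car6 was highest in iRhom2-/- replicate 5, at 51.7 CPM, with the next at 12.6.

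Cnga2 was above every WT library in all iRhom2-/- mice of 8 weeks and below every WT library in all iRhom2-/- mice of 10 weeks, and the difference of the genotype effect between strata had an adjusted p of 0.312 (edgeR). Over all genes tested, 15.3% were higher in every iRhom2-/- mouse at 8 weeks and 6.41% were lower in every one at 10 weeks.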

How the results depend on the processing

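Gucy2d kept a positive combined estimate under every alternative run, from 0.47 relative to mature OSN markers (a measure chosen after seeing the data) to 0.99 in the mice of 8 and 10 weeks alone (edgeR, adjusted p = 0.127). It passed an adjusted p of 0.1 with DESeq2 (0.63) and the likelihood ratio test (0.62). The single-gene exact permutation tests of log2 CPM (0.58, p = 0.00793) and of the marker-relative measure (0.47, p = 0.0154) were not adjusted. Leaving out 1 library gave 0.54 to 0.70 combined, with adjusted p from 0.0805 to 0.238 (edgeR). Without 1 library the combined Cnga3 estimate ran from -0.038 to 0.33, at 8 weeks from -0.50 to 1.12, at 10 weeks from -0.070 to 1.10 and at 5 or 30 weeks from -0.62 to 0.010. Relative to mature OSN markers, Cnga3 was -0.086 combined and -0.40 at 8 weeks, and Car2 was -0.051 combined, -0.11 at 8 weeks and -0.22 at 5 or 30 weeks. Gm45837 was 0.010 in the mice of 8 and 10 weeks alone and 0.011 with the replicate block. Rhbdf2 at 8 weeks ran from -0.86 to -0.72 without 1 library, and lost its call without WT replicate 1, iRhom2-/- replicate 2 or iRhom2-/- replicate 3 of 8 weeks (edgeR, adjusted p up to 0.146), each of which also brought the 8-week calls down to the lowest count below.

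Combined calls numbered 410. They were 234 at an adjusted p of 0.05, 824 with DESeq2, 242 in males, 132 without a stratum term and 106 in the mice of 8 and 10 weeks alone. At 8 weeks the 404 calls became 105 at 0.05, 1047 with DESeq2, 787 with the likelihood ratio test, 143 with library totals, 233 without a filter, 731 with a sex term, 258 in males and 962 fitted alone. At 10 weeks the 39 became 20 at 0.05, 192 with DESeq2, 127 with the likelihood ratio test and 78 with limma-trend. At 5 or 30 weeks the 175 became 78 at 0.05, 605 with DESeq2, 336 with the likelihood ratio test and 93 with library totals. The 10 genes that differed between strata became 3 at 0.05, 288 with the likelihood ratio test, 16 in the 12 mice, 19 with a sex term and 17 in males. Without 1 library the calls ran from 299 to 727 combined, 24 to 566 at 8 weeks, 17 to 68 at 10 weeks, 82 to 335 at 5 or 30 weeks and 0 to 204 for the difference. The highest combined count came without iRhom2-/- replicate 2 of 10 weeks.

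Whether the shared replicate numbers pair the mice was not tested. The correlation of same-numbered deviations lay between 0.0037 and 0.216, and that of differently numbered ones between -0.23 and 0.146. With the number as a replicate block, the 12 mice gave 41 calls against 106 without it, and Gucy2d was 0.96 (edgeR, adjusted p = 0.198). Requiring 10 counts in every library left Cnga3 out. The cause of these shifts was not tested. Among the 3 members, Cnga3 had the lowest counts, 2 to 53 per library.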
